A study of Mus musculus with 14 samples.

Results

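The Fgf ligands examined here were Fgf3, Fgf4, Fgf5, Fgf8, Fgf10, Fgf15, Fgf17 and Fgf18, 8 genes chosen by name out of the 24054 genes that each table lists, and all 8 were found in all 14 libraries. The libraries were made by low-input RNA sequencing of sorted mouse cells and fell into 6 groups. The groups d0con (n = 2) and d0ko (n = 2) were embryonic stem cells (ESCs) at day 0, grown on red-fluorescent mouse embryonic fibroblasts without LIF and sorted as Cherry-negative. The groups d3con (n = 3) and d3ko (n = 3) were Venus-positive cells sorted after 3 days of culture on Wnt3a-secreting feeders with Activin A at 12 ng/ml, a treatment that directs ESCs to mesendoderm and endoderm. Control cells had the genotype Foxa2-Venus-KO/+, in which a Venus reporter replaces Foxa2 on a single allele, and ko cells the genotype Foxa2-Venus-KO/Foxa2-Venus-KO, so that all 10 of these libraries carried at least 1 disrupted allele and none was wild type. Venus is driven by the Foxa2 locus itself and marks, in ko cells, those that would have made Foxa2. Each genotype was represented by 2 clones by the file names. In d3con, replicates 1 and 3 came from clone C59 and replicate 2 from C63, and in d3ko, replicates 1 and 3 came from clone C9 and replicate 2 from C17, so clone and replicate number cannot be told apart at day 3. The groups d2-FVFn (n = 2) and d2-FVFp (n = 2) were Venus-negative and Venus-positive cells of a single ESC line, T119, with the genotype TetON-Foxa2-Venus on a Sox17-Cherry background, grown without feeders in LIF and serum with 40 ng/ml doxycycline for 48 hours. Both of these groups therefore received the inducer.

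Fibroblast growth factors are secreted proteins that bind receptor tyrosine kinases of the Fgfr family together with heparan sulphate on the cell surface, and the receptors signal through Ras and the kinase Erk. Erk activity induces its own inhibitors, among them the Sprouty, Spred and Dusp genes, and transcription factors of the Etv4 and Etv5 group. In the mouse embryo Fgf4 is made by the pluripotent cells of the inner cell mass, Fgf5 marks the epiblast before gastrulation, and Fgf8 is needed for cells to move away from the primitive streak, where mesoderm and endoderm arise.

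The libraries held 14142788 to 27278237 expected counts, the estimated number of reads per gene summed over genes. Levels are given as TPM, which is scaled for gene length and library total and can be compared between genes, and fold changes come from the counts. By their effective gene lengths, 1 library of each day 3 group (replicate 1) was made from 75-base reads, and all others from 50-base reads. Foxa2 was checked first. It was at 0.07 to 0.14 TPM in the 4 day 0 libraries, at 58.6, 34.8 and 54.5 TPM in d3con and 0.11, 0.15 and 0.19 TPM in d3ko, and 169 and 160 TPM in d2-FVFp against 2.99 and 2.01 TPM in d2-FVFn, so that d3con did not overlap d3ko, nor d2-FVFp d2-FVFn. The labelled cell states were checked against marker lists. The summed level of 7 endoderm markers was 4.87 to 8.56 TPM in the day 0 and d2-FVFn libraries, 792 to 1007 TPM in d3con and 33.6 to 193 TPM in d3ko, and all 7 were detected in every d3con library. In d2-FVFp the sum was 26.3 and 17.7 TPM, above every day 0 and d2-FVFn library. The labels do not say that replicates were separate cultures, so p-values measure the spread between these libraries. In sorted bulk samples, fewer cells of a type and less RNA per cell cannot be told apart.

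The summed level of the Fgf ligands was higher in every day 3 library than in any day 0 library, and different ligands made up most of it. The summed TPM of the 8 genes was 166 and 137 in d0con and 144 and 112 in d0ko. It was 992, 1205 and 1108 in d3con, and 304, 823 and 250 in d3ko. Every d3con library lay above every d3ko library, and replicate 2 was the d3ko library nearest to the controls. In d2-FVFn the sum was 125 and 127 TPM and in d2-FVFp 68.7 and 45.7 TPM. At day 0 Fgf4 made up 49.0% to 66.3% of the sum and Fgf17 18.4% to 37.6%. In d3con Fgf8 made up 45.6% to 58.3% and Fgf5 36.1% to 43.8%, while Fgf4 held 0.184% to 0.203%. In d3ko Fgf4 held 23.3%, 1.32% and 49.8% of the sum in replicates 1, 2 and 3. The 8 genes accounted for 96.2% to 99.5% of the TPM of all 22 Fgf genes in the day 0 and day 3 libraries, and for 71.2% to 92.2% in the doxycycline series.

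**Figure D1:**
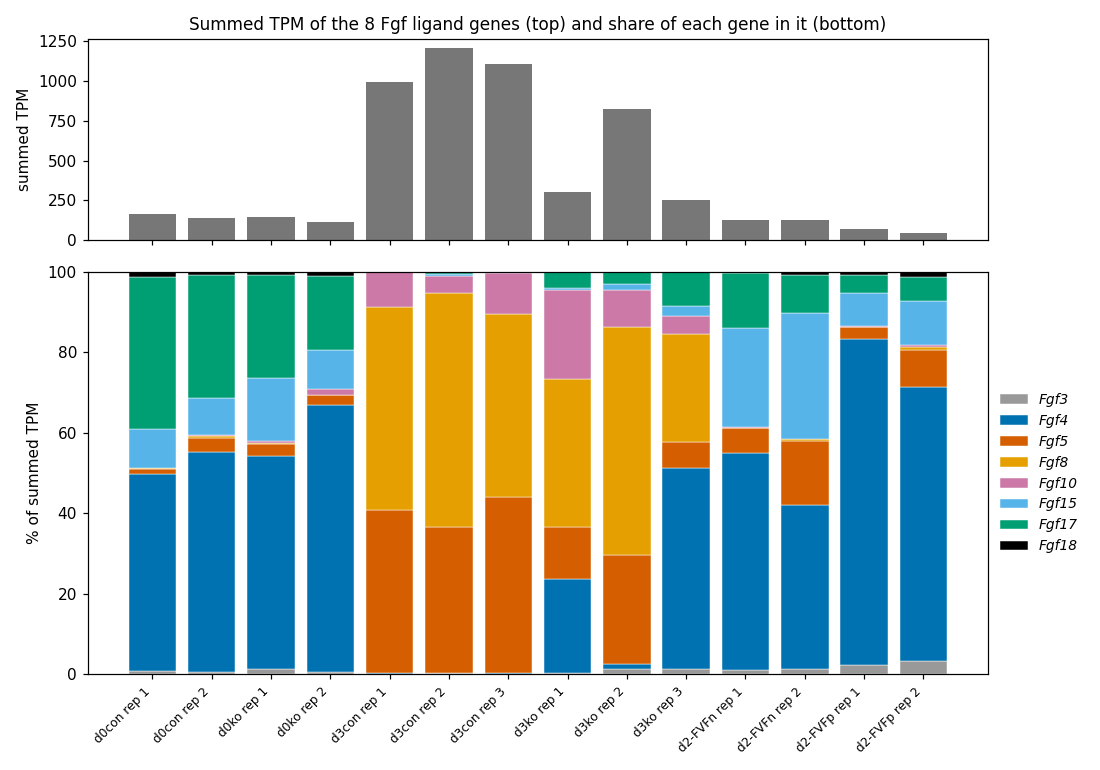
Summed TPM of the 8 Fgf ligand genes in each library (top) and the percentage of that sum held by each gene (bottom), with 1 bar for each of the 14 libraries. Fgf4 and Fgf17 fill most of the day 0 bars, Fgf8 and Fgf5 fill most of the d3con bars and of d3ko replicate 2, and the d3con sums of 992 to 1205 TPM are the highest.

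Fgf4, the ligand that ESCs themselves secrete, showed the sharpest contrast between genotypes. It was at 81.6 and 74.9 TPM in d0con and at 76.0 and 73.9 TPM in d0ko. It was at 2.01, 2.22 and 2.19 TPM in d3con and at 71.0, 10.8 and 124 TPM in d3ko. All 3 d3ko libraries lay above all d3con libraries, replicate 2 by the least. Within d3ko, replicate 3 lay above and replicate 1 just below the range of the day 0 libraries. Fgf4 lies on chromosome 7 (144861386 to 144865245, GRCm38). Its best known enhancer is in the last exon, where a site for Sox proteins stands beside an octamer site for Oct4, the product of Pou5f1. The stretch is shown because Fgf4 is the ligand with the call between genotypes, with the letters CTTTGT and ATGCNAAT in capitals, and lies at chr7:144864388-144864417 on the plus strand in exon 3 of 3, within the 3′ UTR.
Fgf4 Sox and octamer site: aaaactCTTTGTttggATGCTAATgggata
The same pair of letters with a gap of 4 bases, on either strand, was found in the annotated transcripts of 2 of 21877 protein-coding genes (0.01%), and in no other Fgf ligand listed.

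In control cells Fgf4 fell by 5.40 on the log2 scale from day 0 to day 3 (SE 0.78, 42.1-fold, edgeR adjusted p = 0.000781). In ko cells its change of -0.29 (SE 0.68, edgeR adjusted p = 0.776) was within the spread between replicates. Between the genotypes at day 3 Fgf4 was higher in d3ko by 5.01 (SE 0.74, 32.2-fold, edgeR adjusted p = 0.0107). This last call was lost when d3con replicate 3 was left out (adjusted p = 0.0616), when the 2 day 3 groups were fitted alone (adjusted p = 0.053), when libraries of a clone were summed (adjusted p = 0.108) and without both 75-base libraries (adjusted p = 0.131), while the difference stayed between 3.92 and 5.53 in all 16 alternatives. At day 0 the genotypes differed by -0.10 (SE 0.75, edgeR adjusted p = 1.0). The 3 genes whose pattern over the 14 libraries was most like that of Fgf4, by Pearson r of log2(TPM + 1) among 12935 genes, were Hsf2bp (0.991), 4930548H24Rik (0.991) and Ooep (0.99).

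Stem cell markers moved with Fgf4. The summed level of 6 pluripotency markers (Pou5f1, Nanog, Sox2, Zfp42, Klf4 and Dppa5a) was 13790 to 15660 TPM at day 0, 562 to 985 TPM in d3con and 15430, 2668 and 17360 TPM in replicates 1, 2 and 3 of d3ko. Dppa5a made up most of the sum at day 0 and in d3ko, where it was at 14200, 1866.5 and 15543 TPM. Pou5f1 (523, 501 and 944 TPM) and Zfp42 (309, 40.05 and 400 TPM) lay below their day 0 ranges in every d3ko library. Klf4 lay above its day 0 range in d3ko replicates 1 and 3, at 55.15 and 46.2 TPM. Of the 6 markers, 4 were called higher in d3ko than in d3con and none lower, against 4.75% and 3.51% of all genes. Sox2, which encodes a factor that binds the Fgf4 enhancer, was at 4.99, 7.42 and 2.71 TPM in d3con and at 89.3, 14.7 and 86.1 TPM in d3ko. Over the 14 libraries Fgf4 correlated with Sox2 at r = 0.98, with Zfp42 at 0.96, with Pou5f1 at 0.88 and with Nanog at 0.49, values that describe libraries which share clones and stages. The part of these genes in the level of Fgf4 was not tested.

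Fgf5, the epiblast ligand of the same subfamily, ran opposite to Fgf4. It was at 2.10 and 4.78 TPM in d0con and 4.25 and 2.68 TPM in d0ko. It was at 403, 435 and 485 TPM in d3con and at 39.3, 223 and 16.3 TPM in d3ko. The day 3 groups did not overlap, and the d3ko library nearest to the controls was again replicate 2. Fgf5 rose by 6.80 in control cells (SE 1.18, edgeR adjusted p = 0.00175) and by 4.55 in ko cells (SE 1.06, edgeR adjusted p = 0.0133), the latter call being lost without either d0ko library (adjusted p = 0.0901 and 0.102). The ko call was also lost with only the 2 groups fitted (edgeR adjusted p = 0.0613) and by DESeq2 against a 2-fold change (adjusted p = 0.171). The difference of Fgf5 between d3ko and d3con of -2.27 (SE 0.79, edgeR adjusted p = 0.0993) did not pass the threshold, and passed it at -3.97 without d3ko replicate 2 (adjusted p = 0.000769). That fit held only clone C9 in d3ko, so its p-value does not cover the spread between ko clones at day 3. Markers of the formative epiblast were also lower in d3ko: Otx2 by -2.19 and Dnmt3b by -2.17, with Pou3f1 at 0.08 and not called. That made 2 of 3, against 3.51% of all genes called lower. The genes most like Fgf5 over the 14 libraries were Gpc2 (r = 0.982), Endov (0.979) and Ptpn13 (0.979).

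**Figure D2:**
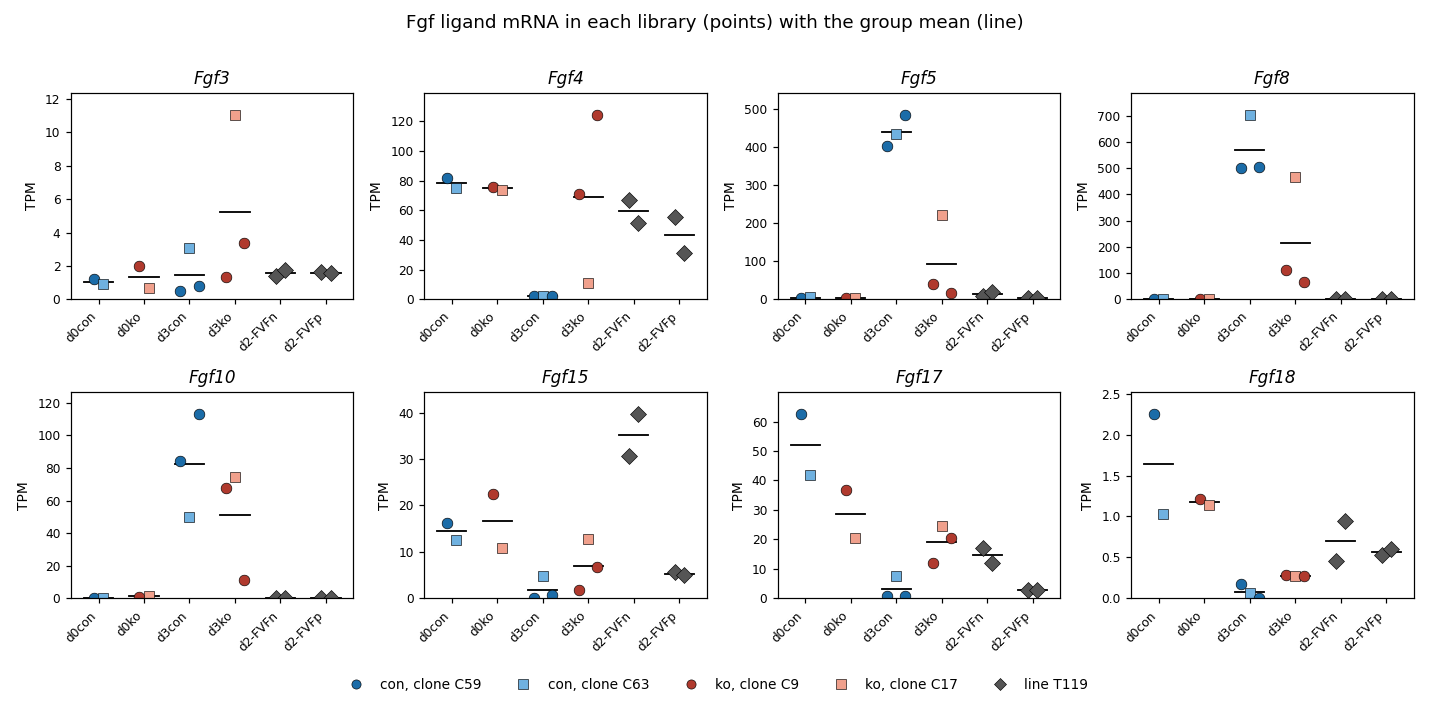
TPM of each Fgf ligand gene in every library, with 1 panel per gene, its own axis from 0 and the group mean as a line, and with colour and shape giving the clone or line. Fgf4 at 2.01 to 2.22 TPM in d3con stands below every other library, and Fgf5, Fgf8 and Fgf10 have their highest libraries at day 3, where d3ko replicate 2 (clone C17) lies nearest to the controls for Fgf4, Fgf5 and Fgf8.

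The upstream promoters of Fgf4 and of 2 ligands that rose, Fgf5 and Fgf10, are given for comparison. RefSeq promoter sequence (GRCm38.p6) was matched for 5 of the 8 genes. Each run is the 250 bases before the start of the gene, with matches to the letters searched in capitals on either strand.
Fgf4, chr7:144861136-144861385, plus strand: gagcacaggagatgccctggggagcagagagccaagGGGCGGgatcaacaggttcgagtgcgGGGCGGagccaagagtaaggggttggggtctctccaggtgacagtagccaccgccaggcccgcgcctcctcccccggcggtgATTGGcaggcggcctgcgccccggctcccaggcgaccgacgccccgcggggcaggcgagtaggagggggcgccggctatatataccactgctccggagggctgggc
Fgf5, chr5:98253934-98254183, plus strand: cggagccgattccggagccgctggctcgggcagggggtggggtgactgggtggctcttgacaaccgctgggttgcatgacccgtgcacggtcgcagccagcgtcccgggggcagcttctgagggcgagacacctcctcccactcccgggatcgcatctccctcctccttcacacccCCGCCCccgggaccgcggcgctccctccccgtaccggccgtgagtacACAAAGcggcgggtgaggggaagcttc
Fgf10, chr13:118714449-118714698, plus strand: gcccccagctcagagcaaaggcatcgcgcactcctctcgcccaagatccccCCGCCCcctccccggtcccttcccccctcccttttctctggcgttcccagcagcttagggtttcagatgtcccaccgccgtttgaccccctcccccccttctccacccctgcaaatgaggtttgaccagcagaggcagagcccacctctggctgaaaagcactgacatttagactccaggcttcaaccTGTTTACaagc
The letters searched, on both strands, were the GC box GGGCGG, the promoter box CCAAT, the forkhead letters TGTTTAC and TATTTAC for the family of Foxa2, the Tcf letters CTTTGAA and CTTTGAT for the effectors of Wnt, the octamer ATGCNAAT and the Sox letters CTTTGT, and none of them contains another. In the Fgf4 promoter there were 2 GC boxes and 1 CCAAT box, the CCAAT box starting 106 bases before the gene. The Fgf5 promoter held 1 GC box and 1 Sox match, which started 27 bases before the gene. The Fgf10 promoter held 1 GC box and 1 forkhead match, TGTTTAC, which started 11 bases before the gene. Among 32851 promoters of the same length the GC box was found in 32.7%, CCAAT in 33.8%, TGTTTAC in 3.2%, TATTTAC in 2.7%, CTTTGAA in 4.5%, CTTTGAT in 3.2%, the octamer in 2.9% and the Sox letters in 16.5%. The share of G and C was 71.2% in the Fgf4 promoter, 70.8% in that of Fgf5 and 61.2% in that of Fgf10, against a median of 52.4% over all promoters. These matches describe the letters and not binding.

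Fgf8, the primitive streak ligand, had the widest range of the 8. It had 2 to 7 expected counts in every day 0 library, which gave 0.27 and 0.70 TPM in d0con and 0.14 and 0.24 TPM in d0ko. It was at 501, 702 and 505 TPM in d3con and at 111, 466 and 67.1 TPM in d3ko. Fgf8 rose by 10.08 in control cells (SE 1.16, edgeR adjusted p = 0.000335) and by 9.98 in ko cells (SE 1.22, edgeR adjusted p = 0.00121), and with so few counts at day 0 the size of these folds depends on the prior count of the fit. All d3ko libraries lay below all d3con libraries. The difference of -1.41 (SE 0.60, edgeR adjusted p = 0.16) was not called. Without d3ko replicate 2 it was -2.67 (edgeR adjusted p = 0.000414), in a fit with only clone C9 in d3ko. The genes most like Fgf8 were Zfr2 (r = 0.991), Pctp (0.988) and Tspo (0.988). Of 7 primitive streak markers all 7 rose in control cells and all 7 in ko cells, against 20.6% and 11.6% of all genes. Between the genotypes at day 3 only Gsc, a transcription factor of the anterior streak, was called. It was lower in d3ko by -2.27, where 3.51% of all genes were called lower. T, the factor of the posterior streak and mesoderm, was at 11.4, 131 and 15.5 TPM in d3con and 13.7, 212 and 55.7 TPM in d3ko, highest in replicate 2 of both genotypes.

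Fgf17 and Fgf18, the closest relatives of Fgf8, did not follow it. Fgf17 was at 62.5 and 41.9 TPM in d0con and at 36.7 and 20.5 TPM in d0ko. It was at 0.92, 7.51 and 0.86 TPM in d3con and at 11.9, 24.7 and 20.6 TPM in d3ko. In d3con all libraries were below day 0, with replicate 2 the highest, and in d3ko 2 of 3 libraries lay within the range of d0ko. Fgf17 fell by 4.31 in control cells (SE 0.82, edgeR adjusted p = 0.00269), while in ko cells its change was -0.77 (SE 0.76, edgeR adjusted p = 0.463). It was 2.64 higher in d3ko than in d3con, without overlap between the groups and short of the threshold (SE 0.75, edgeR adjusted p = 0.0546). DESeq2 (adjusted p = 0.00158), limma (0.025) and edgeR without a filter (0.036) called it. Most of the 16 alternatives did not, with clones summed, the 2 groups alone and the replicate block among them. Without d3con replicate 2 the difference between the genotypes was 4.38 and called (edgeR adjusted p = 0.00182), and the change in control cells was -6.05. Only clone C59 was then left in d3con. Genes most like Fgf17 were Ruvbl2 (r = 0.94), Ahdc1 (0.933) and Nefl (0.912). An annotated long non-coding RNA overlaps the Fgf17 gene and another overlaps Fgf15, and since the library kit does not mark strand their reads cannot be told apart from those of the ligands.

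Fgf18 was low throughout. It was at 2.25 and 1.03 TPM in d0con, 1.21 and 1.14 TPM in d0ko, 0.17, 0.06 and 0 TPM in d3con and 0.29, 0.27 and 0.27 TPM in d3ko. These day 3 levels rest on 0 to 6 expected counts per library. Fgf18 fell by 4.49 in control cells (SE 0.84, edgeR adjusted p = 0.00243), and could not be tested without d0con replicate 1, where it was below the filter on low counts. It fell by 2.23 in ko cells (SE 0.74, edgeR adjusted p = 0.0479). The ko call was lost in 10 of 13 alternatives, with the clone as a block (adjusted p = 0.0637) and the omission of d0ko replicate 2 or of any d3ko library among them, and again a fold from so few counts depends on the prior count.

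Fgf10, a ligand best known from the mesenchyme of limb and lung, appeared in both genotypes at day 3. It was at 0.32 and 0.51 TPM in d0con and 0.84 and 1.51 TPM in d0ko. It was at 84.0, 50.2 and 113 TPM in d3con and at 67.4, 74.2 and 10.95 TPM in d3ko. The day 3 groups overlapped, with d3ko replicate 3 the lowest. Fgf10 rose by 7.43 in control cells (SE 0.98, edgeR adjusted p = 0.000553) and by 5.28 in ko cells (SE 0.86, edgeR adjusted p = 0.0034), the latter lost without d0ko replicate 1 (adjusted p = 0.0505), and differed by -0.70 between the genotypes (SE 0.59, edgeR adjusted p = 0.478). Most like it were Capn6 (r = 0.992), Igf2 (0.99) and Prdm6 (0.989).

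Because fibroblasts were present in the cultures, 8 fibroblast markers were examined beside Fgf10. Their summed level was 12.0 and 14.2 TPM in d0con, 37.9 and 136 TPM in d0ko, 305, 53.1 and 216 TPM in d3con, 289, 118 and 366 TPM in d3ko and 3.00 to 4.25 TPM in the doxycycline series, which had no feeders. Of the 7 markers tested, 4 were called higher in d3con than in d0con and 1 in d3ko than in d0ko, with none lower, against 20.6% and 11.6% of all genes, and Col1a1 was the highest of the 8 in every library. The marker sum was highest in d3ko replicate 3, where Fgf10 was lowest of the day 3 libraries. Among the d3con libraries both were lowest in replicate 2, at 53.1 and 50.2 TPM. The day 0 libraries had the same order in both, from 12.0 and 0.32 TPM in d0con replicate 1 to 136 and 1.51 TPM in d0ko replicate 2. Both were lowest in the doxycycline series, where Fgf10 was at 0.04 to 0.23 TPM. At day 3 all 8 were detected in every library, Col1a1 at 30.3 to 259.6 TPM, Col1a2 at 12.8 to 74.1, Col3a1 at 5.41 to 34.7, Thy1 at 2.51 to 13.3, Postn at 0.79 to 12.2, Dcn at 0.57 to 5.09, Lum at 0.32 to 3.80 and Twist2 at 0.06 to 0.87 TPM. The part of feeder RNA in Fgf10 was not tested.

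Fgf3, of the same subfamily as Fgf10, passed no test. It was at 1.2 and 0.92 TPM in d0con, 2.0 and 0.68 TPM in d0ko, 0.52, 3.09 and 0.82 TPM in d3con and 1.34, 11.04 and 3.40 TPM in d3ko. The groups overlapped, and replicate 2 was the highest library of both day 3 groups. Its change was 0.24 in control cells (SE 1.02, edgeR adjusted p = 0.854) and 1.77 in ko cells (SE 1.02, edgeR adjusted p = 0.213), and its difference between d3ko and d3con 1.83 (SE 0.88, edgeR adjusted p = 0.214). Most like Fgf3 were Cntn2 (r = 0.914), Mir302c (0.909) and Fabp7 (0.903).

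Fgf15, which in the adult gut acts as a hormone on bile acid synthesis and in the embryo is found in neural tissue, was at 16.2 and 12.6 TPM in d0con and at 22.5 and 10.8 TPM in d0ko. It was at 0.14, 4.77 and 0.63 TPM in d3con and at 1.73, 12.8 and 6.65 TPM in d3ko. The day 3 groups overlapped and replicate 2 was the highest in each. Fgf15 fell by 3.21 in control cells (SE 1.11, edgeR adjusted p = 0.0359), a call lost when either d0con library or d3con replicate 1 or 3 was left out (adjusted p = 0.0687 to 0.116). In ko cells it changed by -1.43 (SE 1.05, edgeR adjusted p = 0.325), and between the genotypes by 1.95 (SE 1.02, edgeR adjusted p = 0.247). Without d3con replicate 2 its change in control cells was -5.41, and its difference between the genotypes of 4.16 was called (edgeR adjusted p = 0.0288). Only clone C59 was then left in d3con.

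Counted together, 3 of the 8 ligands rose in control cells (Fgf5, Fgf8 and Fgf10), against 20.6% of all 13899 genes tested, and 4 fell (Fgf4, Fgf15, Fgf17 and Fgf18), against 14.6%. In ko cells the same 3 ligands rose, against 11.6% of genes, and Fgf18 alone fell, against 5.72%. Between the genotypes at day 3, 1 ligand was called higher in d3ko (Fgf4), against 4.75% of genes, and none lower, against 3.51%. In an edgeR fit of these 6 libraries alone none of the 7 ligands tested was called, although 3 had an unadjusted p under 0.05 among 2769 genes. DESeq2 on the same libraries, tested against a 2-fold change, called 1 ligand, Fgf4. By that edgeR fit 0.0518% of genes were called higher and 0.444% lower. Without both day 3 replicate 2 libraries, an alternative chosen after seeing the data, 3 ligands were called higher (Fgf4, Fgf15 and Fgf17), against 11.1% of genes, and 2 lower (Fgf5 and Fgf8), against 7.68%. At day 3 that fit sets clone C9 alone against clone C59 alone, so the spread between clones is not in it. The comparisons share libraries, so they are given side by side and not as separate evidence. The median log2 fold change of the 8 was -1.48 in control cells, 0.74 in ko cells and 1.78 between the genotypes at day 3, against medians of 0.07, 0.07 and 0.02 over all genes tested.

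**Figure D3:**
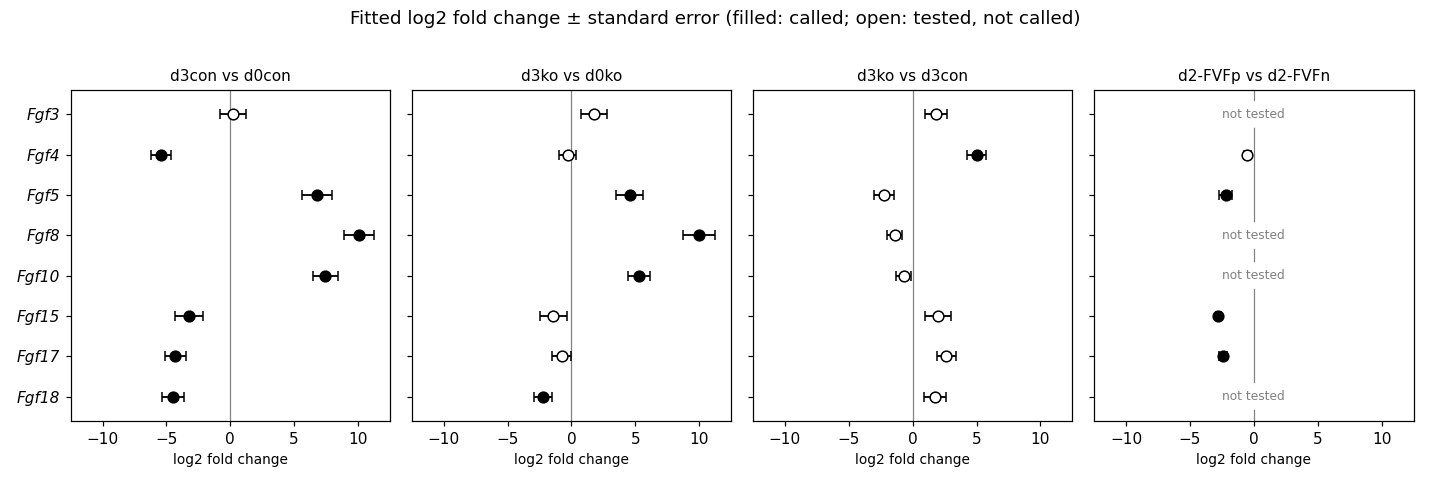
Fitted log2 fold change of each Fgf ligand in 4 comparisons, with bars of 1 standard error on either side, filled points for genes called and open points for those tested and not called. Between d3ko and d3con Fgf4 at 5.01 is the only filled point, and Fgf5, Fgf8 and Fgf10 lie to its left below 0.

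At day 0 none of the 8 ligands was called between the genotypes by edgeR, where 0.0% of all genes were called, none had an unadjusted p under 0.05, as 195 genes did, and DESeq2 and limma called none of the ligands. The largest difference was that of Fgf10, 1.46 higher in d0ko (SE 0.92, edgeR adjusted p = 1.0). The test of whether the change from day 0 to day 3 itself differed between the genotypes called none of the 8 by edgeR, where 0.0% of genes were called, although 2 ligands had an unadjusted p under 0.05 among 1840 genes. These were Fgf4, with a difference of 5.11 (SE 1.05, edgeR adjusted p = 0.148), and Fgf17, with 3.54 (SE 1.13, edgeR adjusted p = 0.241). DESeq2 called both (adjusted p = 1.23e-05 and 0.028) among 565 genes, and limma neither, among 12 genes. Without d3ko replicate 2 edgeR called Fgf4 (5.62, adjusted p = 8.55e-05) and Fgf5 (-3.96, adjusted p = 0.0103), and without d3con replicate 2 it called Fgf17 (5.28, adjusted p = 0.009). These fits held only clone C9 in d3ko or only clone C59 in d3con.

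The values are also given by clone, which at day 3 cannot be told apart from replicate number. Clone C9 held Fgf4 at 76.0 TPM at day 0 and at a mean of 97.6 TPM over its 2 day 3 libraries, at 71.0 and 124 TPM. Clone C17 went from 73.9 to 10.8 TPM. On the log2(TPM + 1) scale the day change of Fgf4 was 0.30 in C9 and -2.66 in C17, against -4.74 in C59 and -4.56 in C63, the control clones. Fgf5 changed by 2.33 in C9 and 5.93 in C17, against 7.16 in C59 and 6.24 in C63. Fgf8 changed by 6.26 in C9 and 8.56 in C17, against 8.63 and 8.69 in the control clones. For Fgf17 the day change was -5.07 in C59 and -2.33 in C63, against -1.18 in C9 and 0.26 in C17. Fgf10 differed within C9 at day 3, at 67.4 and 10.95 TPM, and was at 74.2 TPM in C17. With C17 and C63 sequenced at day 3 only as replicate 2, these values carry no test.

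**Figure D4:**
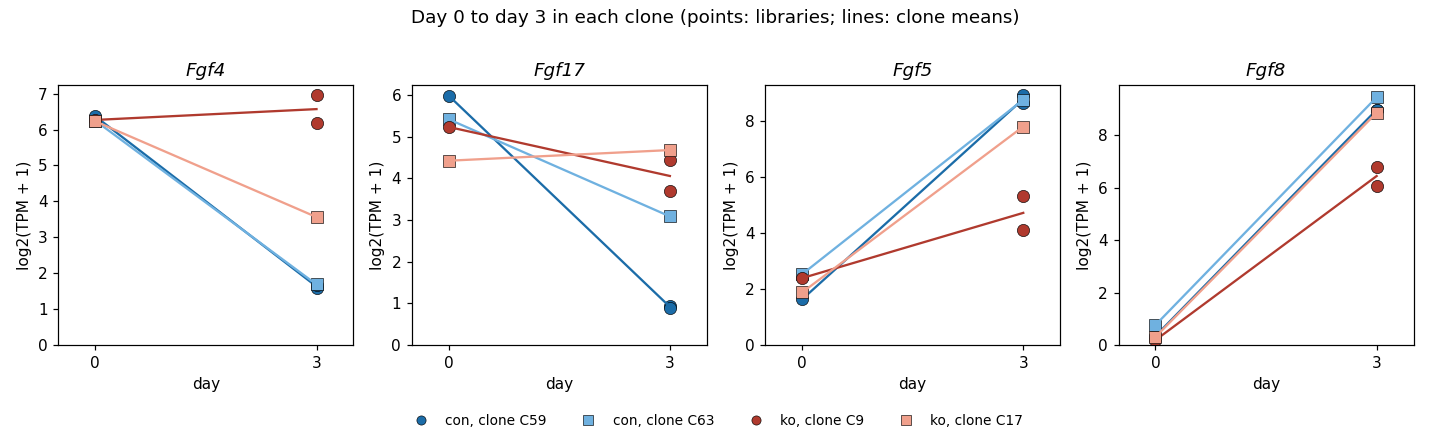
Level of 4 Fgf ligands on the log2(TPM + 1) scale at day 0 and day 3 in each clone, with a point per library and a line between the clone means. Clone C9 keeps Fgf4 at its day 0 level, clone C17 lies between C9 and the control clones for Fgf4 and Fgf5, and for Fgf8 C17, with a day change of 8.56, lies nearer to the control clones at 8.63 and 8.69 than C9 does at 6.26.

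In ESCs induced with doxycycline, without any endoderm culture, 4 of the 8 ligands were high enough to be tested and 3 of those were lower in the Foxa2-expressing cells, against 1.47% of the 12943 genes tested. None was higher, against 6.96%. Fgf15 was at 30.7 and 39.6 TPM in d2-FVFn and at 5.64 and 5.05 TPM in d2-FVFp, and fell by 2.77 (SE 0.22, 6.80-fold, edgeR adjusted p = 0.00128). Fgf17 was at 16.99 and 12.2 TPM in d2-FVFn and at 2.99 and 2.67 TPM in d2-FVFp, and fell by 2.41 (SE 0.29, 5.31-fold, edgeR adjusted p = 0.0037). Both separated the groups without overlap and were called in all 10 alternatives.

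Fgf5 was at 7.71 and 20.3 TPM in d2-FVFn and at 2.05 and 4.12 TPM in d2-FVFp. It was lower by -2.21 (SE 0.51, edgeR adjusted p = 0.0276), a call that was lost without d2-FVFn replicate 2 (adjusted p = 0.144) or d2-FVFp replicate 1 (adjusted p = 0.0611). Fgf4 was at 67.3 and 51.6 TPM in d2-FVFn and at 55.6 and 31.1 TPM in d2-FVFp, overlapping groups that differed by -0.50 (SE 0.27, edgeR adjusted p = 0.239). The other 4 ligands were too low to test: Fgf3 at 1.39 to 1.73 TPM, Fgf8 at 0 to 0.49 TPM, Fgf10 at 0.04 to 0.23 TPM and Fgf18 at 0.46 to 0.95 TPM. Of the 3 formative epiblast markers, Otx2, Dnmt3b and Pou3f1, all 3 were also lower in d2-FVFp, against 1.47% of all genes. Of the 6 pluripotency markers Klf4 was higher, against 6.96% of all genes, and none was called lower.

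Ordered by level over the 6 groups, the group means of Fgf4 ran from 78.3 TPM in d0con through d0ko, d3ko, d2-FVFn and d2-FVFp to 2.14 TPM in d3con, and only d3con was separated from its neighbour in that order. For Fgf5 and Fgf8 d3con came first, at means of 441 and 570 TPM, and d3ko second, at 92.9 and 215 TPM, without overlap between them. Fgf10 had the same order, at 82.4 and 50.9 TPM, with overlap. Fgf15 was highest in d2-FVFn at 35.2 TPM, apart from d0ko at 16.6 TPM, and lowest in d3con at 1.85 TPM. Fgf17 and Fgf18 were highest in d0con, at 52.2 and 1.64 TPM. Fgf3 was highest in d3ko at 5.26 TPM and each of its groups overlapped the next.

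Fgf3, Fgf4 and Fgf15 lie side by side on chromosome 7 within 62.3 kb, Fgf3 at 144838612 to 144843348 and Fgf15 at 144896532 to 144900953, whereas the other 5 lie on separate chromosomes: Fgf5 on 5 (98254184 to 98277033), Fgf8 on 19 (45736491 to 45742941), Fgf10 on 13 (118714699 to 118792573), Fgf17 on 14 (70636203 to 70642268) and Fgf18 on 11 (33116970 to 33147400). The tables list 11 further genes that start within 500 kb of Fgf4, of which 7 passed the filter in each fit. Ano1, a chloride channel gene, was at 0.26 and 0.17 TPM in d0con, 0.73, 0.72 and 1.33 TPM in d3con and 0.19, 0.24 and 0.36 TPM in d3ko, so that it ran against Fgf4 at day 3. It was higher in d3con than d0con by 1.87 (edgeR adjusted p = 0.0182), lower in d3ko than d3con by -1.77 (adjusted p = 0.0426) and higher in d2-FVFp by 3.49 (adjusted p = 0.00333), reaching 3.35 and 5.88 TPM there against 0.33 and 0.46 TPM.

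Ccnd1, which encodes cyclin D1, starts 68.5 kb from the start of Fgf4, with the start of Oraov1 between it and Fgf15. Ccnd1 was at 30.1 and 26.6 TPM in d0con and at 18.0, 13.03 and 8.86 TPM in d3con. It fell by 1.28 in control cells (edgeR adjusted p = 0.0181) and was lower in d2-FVFp by -1.10 (adjusted p = 0.00682), while its difference between d3ko and d3con of 1.13 was not called (adjusted p = 0.0671). Tpcn2, an ion channel gene, fell by 1.64 in control cells and by 1.52 in ko cells (adjusted p = 0.00104 and 0.00357). The remaining genes tested, Cttn, Ppfia1, Fadd and Oraov1, were not called in any comparison.

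**Figure D5:**
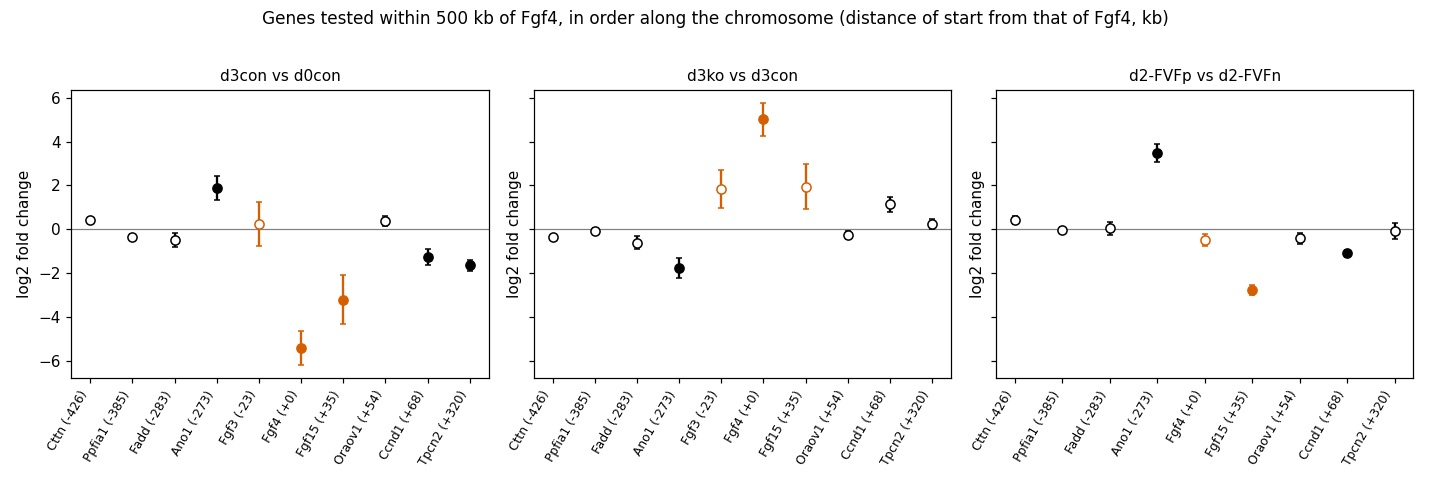
Log2 fold change with 1 standard error on either side for each gene tested within 500 kb of Fgf4, in chromosome order with the distance of its start from that of Fgf4 in kb, for 3 comparisons (orange: Fgf ligands; filled: called). Fgf4 at -5.40 and 5.01 moves most in the first and second panels, and Ano1 has the opposite sign to Fgf4 in all 3.

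Of 9 listed receptors and binding proteins of the pathway, 7 were tested at day 0 and day 3. In control cells, where 20.6% of all genes rose and 14.6% fell, Fgfrl1, a receptor without a kinase domain, rose by 2.75 (edgeR adjusted p = 0.000453) and Fgfbp3, a carrier that releases ligands from the matrix, by 2.68 (adjusted p = 0.00234), and none fell. In ko cells, where 11.6% of all genes rose and 5.72% fell, Fgfrl1 rose by 1.74 (edgeR adjusted p = 0.00647). Fgfbp1, another carrier, fell there by 3.09 (adjusted p = 0.00242) and Fgfr2 by 2.15 (adjusted p = 0.0479). Fgfrl1 was at 11.1, 10.2 and 11.6 TPM in d3con and at 3.96, 5.10 and 3.39 TPM in d3ko, and Fgfbp1 was at 52.1, 52.8 and 29.7 TPM in d3con and at 6.98, 16.4 and 6.37 TPM in d3ko. These 2 were called lower in d3ko, Fgfrl1 by -1.42 (edgeR adjusted p = 0.0173) and Fgfbp1 by -2.20 (adjusted p = 0.0168), and none was called higher, against 3.51% and 4.75% of all genes. The median log2 fold change of the list was 0.12 in control cells, -0.38 in ko cells and -0.99 between the genotypes. Fgfr1, the main receptor of ESCs, was at 31.8 to 39.4 TPM in the day 0 and d2-FVFn libraries and 46.3 to 70.4 TPM at day 3, and at 61.85 and 60.2 TPM in d2-FVFp. It passed the p threshold but not the fold threshold in control cells (0.56, edgeR adjusted p = 0.0148) and in d2-FVFp (0.64, adjusted p = 0.0158), so it was not called. In the doxycycline series 1 of 8 genes was called, higher in d2-FVFp, against 6.96% of all genes called higher. This was Klb, a co-receptor for hormone-like Fgf proteins such as Fgf15, at 0.90 and 1.39 TPM in d2-FVFp against 0.03 TPM in both d2-FVFn libraries (log2 difference 5.02, edgeR adjusted p = 0.00607). The call was lost without d2-FVFp replicate 2. The 3 calls in ko cells became 1 without d0ko replicate 1.

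Of 13 genes that respond to Erk, 6 fell and 2 rose in control cells, against 14.6% and 20.6% of all genes. Etv5 was at 344 and 379 TPM in d0con, 28.7, 102 and 35.8 TPM in d3con and 224, 166 and 319 TPM in d3ko, which placed every d3ko library above every d3con library. Etv5 fell by 2.92 in control cells (edgeR adjusted p = 0.00129) and was 2.11 higher in d3ko than in d3con (adjusted p = 0.0209). Fosl1, a subunit of AP-1, and Spry4, a Sprouty inhibitor, were next in size among those that fell, by 2.31 and by 1.92 (adjusted p = 0.0342 and 0.000425), and Dusp4, an Erk phosphatase, and Il17rd, a receptor that dampens Fgf signals, rose by 2.36 and 1.47 (adjusted p = 0.0156 and 0.0203). In ko cells 3 fell and none rose, against 5.72% and 11.6% of all genes. Fosl1 fell by 2.32, Egr1 by 2.23 and Spry4 by 1.19 (edgeR adjusted p = 0.0483, 0.0108 and 0.00713). Between the genotypes at day 3 Etv5 and Spry2 (1.26, edgeR adjusted p = 0.0367) were called higher in d3ko and none lower, against 4.75% and 3.51% of all genes. In the doxycycline series Egr1 was higher in d2-FVFp by 1.06 (edgeR adjusted p = 0.0342) and Etv1 lower by -1.29 (adjusted p = 0.00422). These were 2 of 13, against 6.96% of all genes called higher and 1.47% lower, and not both were kept without d2-FVFn replicate 2. Dusp6 and Spred1 were each higher in d2-FVFp by 0.93 (edgeR adjusted p = 0.00384 and 0.00701). Both passed the p threshold there but not the fold threshold, so they were not called. The median log2 fold change of the list was -0.68 in control cells, 0.26 in ko cells and 0.15 between the genotypes at day 3. The 8 calls in control cells became 3 without d0con replicate 1 and 5 without d0con replicate 2, and the 3 in ko cells became 0 without d0ko replicate 1 and 6 with DESeq2.

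Among 14 genes for heparan sulphate and the proteoglycans that carry it, 4 rose and 1 fell in control cells, against 20.6% and 14.6% of all genes. Gpc3, a glypican that tethers growth factors at the membrane, was at 11.6 and 19.7 TPM in d0con and at 1190, 734 and 1486 TPM in d3con, and rose by 5.98 (edgeR adjusted p = 0.000234). Gpc4, another glypican, rose by 3.31 (adjusted p = 0.00275) and Gpc1 by 1.38 (adjusted p = 0.0148), and Sdc4, a syndecan, fell by 1.19 (adjusted p = 0.0145). In ko cells, where 11.6% of all genes rose and 5.72% fell, Gpc3 rose by 4.18 (edgeR adjusted p = 0.00156). Ndst2, an enzyme that sulphates the chains, rose there by 1.95 (adjusted p = 0.000782), and Sdc4 fell by 1.05 (adjusted p = 0.0391). Gpc4 was the 1 gene of the list called between the genotypes at day 3, against 3.51% of all genes called lower in d3ko. It was at 427, 137 and 468 TPM in d3con and 83.6, 89.6 and 31.8 TPM in d3ko (-2.34, edgeR adjusted p = 0.0242). The list's median was 0.41 in control cells, 0.45 in ko cells and -0.09 between the genotypes. Its calls between the genotypes at day 3 became 4 without d3ko replicate 2, those in control cells became 3 without d0con replicate 2 and those in ko cells became 5 without d3ko replicate 3. In d2-FVFp Gpc3 and Sdc4 were higher, by 1.69 and 1.57 (edgeR adjusted p = 0.00962 and 0.00196), and none was lower, against 6.96% and 1.47% of all genes. Not both calls were kept without d2-FVFn replicate 1. The calls of the receptor, Erk and heparan sulphate lists between d3ko and d3con numbered 0 in each list when d3con replicate 1 or 3 or d3ko replicate 1 or 3 was left out and when the 6 libraries were fitted alone.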

How the data were processed

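RNA of sorted mouse cells was amplified with the SMART-Seq v4 ultra low input kit, which does not mark strand. Per the labels and the study's methods the authors aligned reads to mm10 (GRCm38) with STAR and quantified each library with RSEM. Versions were not given in the sources used here. The deposited expected counts are the authors' RSEM estimates of reads per gene, unscaled, and the deposited TPM values were scaled by the authors for gene length and library total. RSEM divides reads that match several genes.

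Expected counts (14142788 to 27278237 per library) were rounded. Genes with at least 1 CPM in at least 2 libraries were kept, scaled by TMM and tested with edgeR 4.0.16 in R 4.3.3 (quasi-likelihood F test, Benjamini-Hochberg adjustment over all genes), in a fit of 10 libraries (13899 genes) and a fit of the 4 doxycycline libraries (12943 genes). Calls needed an adjusted p under 0.05 and a log2 fold change beyond 1 in either direction. The SE was obtained as the log2 fold change over the root of F. The code was tested on simulated data. DESeq2 1.42.0 was run pairwise against a 2-fold change, a form of test that the study states, and on the 10 libraries. Its input here was the filtered and rounded RSEM counts, so its calls need not match the study's. The limma 3.58.1 fit used log2(TPM + 1). Other alternatives were another scaling, no filter, replicate or clone blocks, summed clones, the 2 groups alone and leaving out libraries. Clones were read from the file names. The day 0 and day 3 libraries of a genotype share clones, which pairs them. Deviations of such pairs correlated at -0.04 to 0.063.

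The ligands and lists were chosen with earlier results of these data known. Named were the 8 ligands and Foxa2, up to 3 called genes per direction, list and comparison, genes starting within 500 kb of Fgf4, and the 3 genes of highest Pearson r with each ligand whose highest group mean reached 5 TPM, among genes with a mean of at least 1 TPM. The genes most like Fgf15 are not reported here. Positions and promoters are from RefSeq (GRCm38.p6) and the enhancer site from GENCODE.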

Additional observations from a re-analysis of the deposited data

How the results depend on the processing

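The number of the 8 ligands called was 7 from d0con to d3con, and 5 to 7 when a library was left out. From d0ko to d3ko it was 4, and 2 with only the 2 groups fitted, 2 by DESeq2 against a 2-fold change and 1 to 3 with a library left out. Between d3ko and d3con it was 1. It became 2 without a filter, 2 with the replicate number as a block, 2 by DESeq2, 3 by limma, 0 with clones summed, 0 with only the 2 groups, 0 without both 75-base libraries, 5 without both day 3 replicate 2 libraries, and 0 to 3 with a library left out. For the difference in day change it was 0, and 2 by DESeq2, 3 without both day 3 replicate 2 libraries and 0 to 2 with a library left out. It was 3 in the doxycycline series, 2 to 3 with a library left out, and 0 between the day 0 groups in every alternative. The causes of these shifts were not tested. Deviations of same-numbered libraries across genotypes at day 3 correlated at 0.54, 0.29 and -0.014 for replicates 1, 2 and 3. Replicates 1 and 2 correlated best with their own number and replicate 3 did not, so the numbers were not taken as pairs, and both replicate 1 libraries share the 75-base reads. The block changed the count of ligands called by over 1.5 times only between d3ko and d3con, where the call of Fgf8 was added (-1.90, edgeR adjusted p = 0.0398).

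Of 654 fits of single ligands under an alternative, 586 kept direction and side of the threshold, 28 lost a call, 22 gained one and 18 changed sign. The sign changes concerned values that were not called. Fgf3 from d0con to d3con was -0.85 without both day 3 replicate 2 libraries and -0.86 to 0.67 with a library left out, and Fgf4 from d0ko to d3ko was 0.23 without those libraries and -1.02 to 0.23 with one left out. Between the day 0 groups Fgf5 was 0.22 with the replicate block, 0.05 by limma and -0.50 to 0.68 with a library left out, Fgf3 was -0.70 to 0.89 and Fgf15 -0.47 to 0.62. The difference in day change of Fgf8 was 0.04 with the clone as a block, 0.17 with clones summed, 0.14 without both 75-base libraries and -1.37 to 0.45 with a library left out. Leaving out 75-base or day 3 replicate 2 libraries was chosen after seeing the data. Leaving out replicate 2 of a day 3 group left a single clone in it. Depth limits each ligand where it had under 100 counts. Fgf18 was under 100 counts in every library, Fgf3 in all but d3ko replicate 2, and Fgf8 and Fgf10 in all but the day 3 libraries. Fgf4 and Fgf15 were under 100 counts in every d3con library, and Fgf17 in d3con replicates 1 and 3. Fgf5, Fgf15 and Fgf17 were under 100 counts in both d2-FVFp libraries, and Fgf5 also in some day 0 libraries.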

Other observations

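Of the 14 other Fgf genes, 3 passed the filter in the day 0 and day 3 libraries, and 2 of these rose in both genotypes, against 20.6% of all genes in control and 11.6% in ko cells. Fgf11, which encodes an intracellular relative of the secreted ligands, was at 0.34 and 0.42 TPM in d0con and at 1.28, 2.62 and 1.68 TPM in d3con, and rose by 2.07 in control cells and by 3.49 in ko cells (edgeR adjusted p = 0.0124 and 0.00412). Fgf21, a hormone-like ligand of stressed and fasted liver, was at 0.19 and 0 TPM in d0con and at 5.58, 1.14 and 1.66 TPM in d3con, and rose by 4.50 and by 3.83 (edgeR adjusted p = 0.0275 and 0.05, the second just under the threshold). Its 2 highest libraries at day 3 were the 75-base ones, at 5.58 and 6.01 TPM. The calls of this list in control cells became 0 without either d0con library. In ko cells Fgf21 was not called under RLE scaling, with the clone as a block, with clones summed, with only the 2 groups, by limma, by DESeq2 against a 2-fold change, without both 75-base libraries, or without either d0ko library or d3ko replicate 1 or 3. Fgf13, another intracellular member, was the highest of the 14 in the doxycycline series, at 4.66 and 7.10 TPM in d2-FVFn and 6.96 and 10.8 TPM in d2-FVFp, and was not called.

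Fgf3, Fgf8, Fgf15 and Fgf17 were highest in replicate 2 of both day 3 groups. Replicate 2 also had the highest T in both groups, at 131 and 212 TPM, and the highest Mesp1, at 21.5 and 64.8 TPM, which are factors of the mesoderm. Of the other primitive streak markers, Mixl1 and Wnt3 were also highest there in both groups. Eomes, Lhx1 and Gsc were highest there in d3ko only. Nanog was at 246 TPM in d3con replicate 2 against 40.2 and 42.5 TPM in replicates 1 and 3. In d3ko Nanog was lowest in replicate 2, at 240 TPM against 254 and 345 TPM. These libraries were picked out after their values were seen, and the part of the shared replicate number in this was not tested.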
